A study of Mus musculus with 14 samples.

Results

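The presynaptic active zone is the patch of nerve terminal membrane at which synaptic vesicles dock and fuse, and its scaffold proteins hold vesicles, calcium channels and release factors together. The genes described here are 10 of its core scaffolds, Bsn, Pclo, Rims1, Rims2, Erc1, Erc2, Unc13a, Unc13b, Ppfia2 and Rimbp2. They were taken by symbol from the 40840 genes of the deposited count table, and all 10 were among the 14893 genes with enough counts to be tested. The rule names symbols and no threshold, but they were chosen by someone who knew the measured stage differences, the peak library's in particular, so their levels by stage are given as a description.

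Bassoon (Bsn) and Piccolo (Pclo) are giant scaffolds that gather vesicles at the release site. RIM proteins (Rims1, Rims2) tether vesicles and calcium channels, RIM-binding protein (Rimbp2) links RIMs to calcium channels, and ELKS/CAST proteins (Erc1, Erc2) and liprins (Ppfia2) bind RIMs and help to assemble the site. Munc13 proteins (Unc13a, Unc13b) prime docked vesicles for fusion. In the retina, amacrine cells use conventional active zones, while rods, cones and bipolar cells release from ribbon synapses. Ribbon synapses contain most of the same scaffolds beside the ribbon protein RIBEYE, a product of Ctbp2.

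The samples were eyes of female mice aged 7 to 8 weeks, with retinal ganglion cell neurons given as the cell type, and no strain or allele is named. The treated mice had EAE (experimental autoimmune encephalomyelitis, a disease in which immune cells damage myelin). They gave 4 presymptomatic libraries (pre), 4 libraries from the onset of symptoms (onset) and 1 library from peak disease (peak, replicate 2). Naive control mice gave 4 libraries, with replicate numbers 1, 2, 4 and 5. The labels list 14 samples, and the other peak sample was not analysed here. Whether replicates are separate animals is not stated, so p-values measure the spread between these samples only, and no sort or gate is described.

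Counts assigned to genes summed to between 2596705 (onset 1) and 7641214 (the peak library). The members were far above the counting floor (3 counts), with 142 counts of Erc2 in naive 1 the lowest and 5980 of Pclo in naive 5 the highest. Levels are in CPM (a gene's share of the library's counts, scaled by TMM factors), and errors are standard deviations (SD) over libraries. The summed level of 13 amacrine cell markers was 7595 to 10940.0 CPM in naive, that of 14 ganglion cell markers (13 with enough counts to test) 1316 to 1745 CPM and that of 15 rod markers 299 to 6493 CPM, so the labelled cell type was not alone. Ganglion cell markers summed to 1229 to 1914 CPM in pre, 1240.4 to 1518 CPM in onset and 1457 CPM in the peak library where Pou4f2 and Pou4f3 had no counts. The 12 microglia and macrophage markers summed to 111 to 571 CPM in naive, 455 to 1182 CPM in pre, 390.3 to 1926 CPM in onset and 912 CPM in the peak library, and the part of these cells in the stage differences was not tested. In such mixed samples, fewer cells of a type and less RNA per cell cannot be told apart.

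Members that form paralog pairs were compared over their coding sequences, and the rest of their exons was not compared. The longest identical run between the coding sequences of Unc13a and Unc13b was 32 bases, that of Rims1 and Rims2 23 bases, and those of Bsn and Pclo and of Erc1 and Erc2 17 bases each. None of these pairs shared a word of 50 bases in the coding sequences, and reads with several alignments were not assigned to genes. The 120 coding bases around the longest shared run are shown 5′ to 3′ without gaps for the pair of Munc13 genes, with bases identical between the paralogs in capitals (97 of 120) and differing bases in lower case.
Unc13a, coding bases 3320 to 3439: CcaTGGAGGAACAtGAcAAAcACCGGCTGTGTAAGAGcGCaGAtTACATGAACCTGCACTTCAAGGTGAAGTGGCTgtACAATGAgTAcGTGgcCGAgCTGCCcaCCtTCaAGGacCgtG
Unc13b, coding bases 11450 to 11569: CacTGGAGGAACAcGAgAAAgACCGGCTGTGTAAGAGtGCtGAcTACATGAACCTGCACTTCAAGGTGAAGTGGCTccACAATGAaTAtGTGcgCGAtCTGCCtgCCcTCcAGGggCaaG
The same window of the RIM pair held 90 identical bases of 120.
Rims1, coding bases 3379 to 3498: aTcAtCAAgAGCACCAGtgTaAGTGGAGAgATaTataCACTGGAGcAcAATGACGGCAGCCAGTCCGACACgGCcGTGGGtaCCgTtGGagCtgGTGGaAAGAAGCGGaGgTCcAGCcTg
Rims2, coding bases 3814 to 3933: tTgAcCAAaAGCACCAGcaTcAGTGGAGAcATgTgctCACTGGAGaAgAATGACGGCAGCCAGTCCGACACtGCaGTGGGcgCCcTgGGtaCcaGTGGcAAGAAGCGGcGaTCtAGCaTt
Positions count from 1 at the start of the longest open reading frame in GENCODE M21. Overlap with genes on the opposite strand was larger: 22.34% of the merged exons of Ppfia2 lie over Acss3, 11.79% of those of Erc1 over Gm44317 and 3.92% of those of Unc13a over Colgalt1. Since the strand setting is not given in the sources used here, reads there may belong to either gene.

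Per kilobase of merged exon, Bsn and Unc13a stood highest in naive and the ELKS genes lowest. Bsn averaged 51.3 ± 10.9 CPM per kb (SD, n = 4), Unc13a 48.8 ± 8.74 and Pclo 45.2 ± 4.93. Rimbp2 followed at 33.8 ± 14.2, Unc13b at 29.8 ± 7.22, Rims2 at 25.1 ± 6.75 and Ppfia2 at 19.8 ± 1.49, and each of these neighbours in the order had overlapping naive ranges. Rims1, at 13.1 ± 3.22 CPM per kb, lay below every naive library of Ppfia2 and above every one of Erc2 (5.49 ± 0.712). Erc2 and Erc1 (5.16 ± 0.987) overlapped. Merged exons include all annotated transcripts, so the per-kilobase level of a gene with long alternative exons, such as Unc13b, is a low estimate.

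Per kilobase, Rims2 exceeded Rims1 in all 13 libraries, by 1.23-fold in pre 3 to 2.33-fold in onset 3. Unc13b, whose per-kilobase level is a low estimate, had a ratio to Unc13a of 0.336 in pre 3 and 0.355 in onset 4 up to 0.906 in pre 1. Without division by length, its counts exceeded those of Unc13a in 7 of the 13 libraries (ratios of counts from 0.605 to 1.63), so their order depends on the length used. The ratio of Bsn to Pclo ran from 0.983 in naive 5 and onset 4 to 1.48 in the peak library. The ratio of Erc1 to Erc2 ran from 0.704 in naive 4 to 1.26 in naive 1, so their order changed between replicates of 1 stage.

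**Figure D1:**
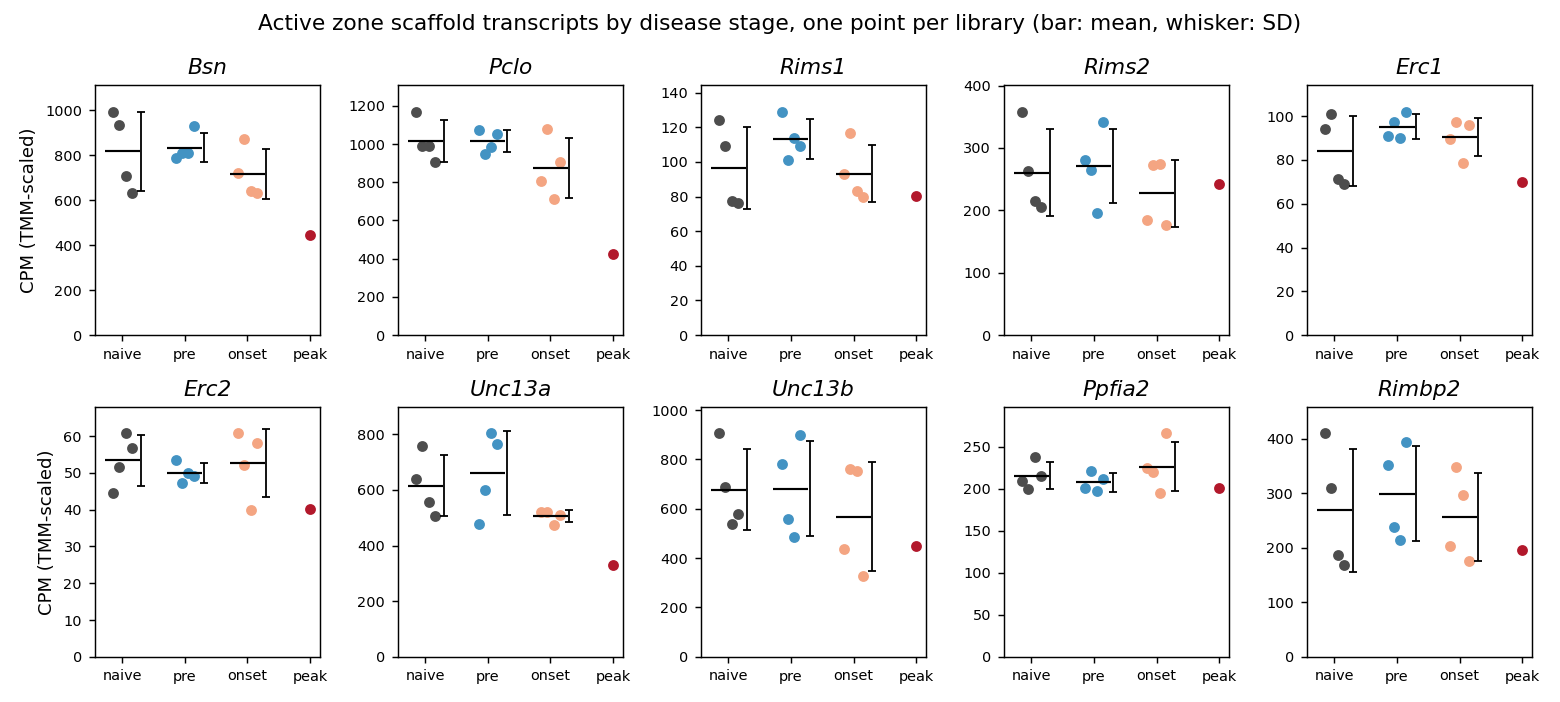
TMM-scaled CPM (y axis, from 0) of each member in each library by stage, with points for libraries, horizontal bars for means and whiskers for SD (n = 4 in naive, pre and onset; the peak is 1 library). Naive, pre and onset overlap for every member, while the peak library lies below all naive libraries for Bsn, Pclo, Erc2, Unc13a and Unc13b.

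Before symptoms, no member left the naive range as a group. Bsn was at 993, 935, 708 and 632 CPM in naive 1, 2, 4 and 5 and at 789, 809, 808 and 929 CPM in pre 1 to 4. The pre libraries lay inside the wide naive range, with means of 834 ± 64.0 and 817 ± 174 CPM (SD, n = 4 each). Pclo was at 1169, 992, 989 and 907 CPM in naive and at 1074, 949.7, 983 and 1054 CPM in pre. The largest difference on the log2 scale was that of Rims1, at 124, 109, 77.5 and 76.1 CPM in naive and 129, 101, 114 and 109 CPM in pre (0.23 ± 0.17 log2, where the error is the standard error (SE) of the fit).

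Across the 10 members, 8 had a higher fitted level in pre than in naive, with a median of 0.05 log2 and a range of -0.10 to 0.23, beside a median of -0.02 over all genes tested. That direction rested on single libraries: without naive 5, 3 members were above 0 (median -0.04), and without naive 4 or pre 4, 4 members (medians of -0.01 and -0.02), while without naive 1 the median was 0.16. With the replicate number as a block, 4 members were above 0 (median -0.01) and 0 were called, although the numbers were not shown to pair the samples. The test was edgeR's quasi-likelihood F test, two-sided, with Benjamini-Hochberg adjustment over the 14893 genes and a threshold of 0.05. It called 0 members and 0 genes (0.0% of all genes, 832 of them at an unadjusted p below 0.05 against 0 of the members). DESeq2 called 6 genes and limma-voom 0, with no member among them. Groups without overlap were found for 0 members, against 1.36% of all genes with higher and 1.62% with lower levels in pre.

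At symptom onset, 8 of the 10 members had a lower fitted level than in naive, within the spread between libraries. Unc13a, the main priming factor of most brain synapses, had 641, 759, 556 and 507 CPM in naive and 519, 519.8, 474 and 511 CPM at onset. The onset libraries were close together (506 ± 22.0 CPM), and 3 of the 4 lay inside the naive range of 616 ± 110.3 CPM (SD, n = 4 each). Pclo was at 804, 1078, 714 and 906 CPM at onset, where 3 of 4 libraries lay below the lowest naive library and onset 2 inside the naive range. The differences were -0.28 ± 0.16 log2 (SE) for Unc13a and -0.21 ± 0.12 for Pclo. Erc1 (0.11 ± 0.12) and Ppfia2 (0.07 ± 0.09) were the members with a higher fitted level.

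The median over the members was -0.13 log2 at onset against naive, beside -0.01 over all genes. It was -0.04 without naive 1, -0.08 without naive 2 or onset 1, -0.07 without onset 4, -0.21 without naive 4, -0.24 without naive 5 and -0.27 without onset 2, and 6 members were lower without naive 1, naive 2 or onset 3 and in limma-voom. In edgeR 0 members and 0 genes were called (0.0%, with 888 genes and 0 members at an unadjusted p below 0.05). DESeq2 called 16 genes and limma-voom 0, again without a member. None of the members had groups without overlap, against 1.69% of all genes with lower and 1.39% with higher levels at onset. With each library's trend over exon length removed, the members' median was -0.07 log2, and 3 members had a higher fitted level than in naive.

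From pre to onset the fitted difference was below 0 for 8 of 10 members, with a median of -0.22 log2 beside 0.01 over all genes (-0.11 without pre 4, -0.13 without onset 4 and -0.34 without onset 2). Unc13a, at 478, 601, 803 and 767 CPM in pre, had the largest of these, -0.39 ± 0.16 log2 (SE; unadjusted p = 0.0289 and adjusted p = 0.669 in edgeR). Pre 1 lay inside the onset range and the other pre libraries above it. Of the other members, Bsn differed by -0.22 ± 0.15, Rims1 by -0.28 ± 0.17 and Ppfia2 by 0.13 ± 0.09. Groups without overlap were found for 0 members, against 2.48% of all genes lower and 1.98% higher at onset. No member and no gene was called (0.0%, 1015 genes at an unadjusted p below 0.05; DESeq2 called 20 genes and limma-voom 0, none of them a member).

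In the single peak library all 10 members had a lower fitted level than in naive, by amounts from -0.10 log2 to -1.26 log2 (with limma-voom 9 of 10, and with single libraries left out Rims2 ranged from -0.22 to 0.09). Pclo stood at 425 CPM there, below the 907 CPM of the lowest naive library and the 714 CPM of the lowest onset library. Its difference from naive was -1.26 ± 0.21 log2 (SE), which is 2.39-fold. Unc13a stood at 329 CPM (-0.90 ± 0.26 log2) and Bsn at 446 CPM (-0.87 ± 0.25), both also below every naive, pre and onset library. This comparison has 1 library on its peak side, taken in the fit to have the spread of the other groups.

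The remaining members were nearer to naive. Unc13b was at 451 CPM in the peak library, below its naive libraries (905, 688, 539 and 578 CPM) but above onset 4 at 327 CPM and onset 1 at 435 CPM. Erc2, the CAST protein, was at 40.1 CPM against 44.6 to 60.7 CPM in naive and 39.9 CPM in onset 3. Rims1 (80.3 CPM), Rims2 (242 CPM), Erc1 (69.8 CPM), Ppfia2 (201 CPM) and Rimbp2 (196 CPM) each lay inside their naive ranges. Their differences ran from -0.45 ± 0.53 log2 for Rimbp2 to -0.10 ± 0.15 for Ppfia2.

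The members' median was -0.44 log2 at the peak beside -0.03 over all genes tested. In edgeR 1 member, Pclo (adjusted p = 0.0338), was among the 24 genes called, of which 23 were lower (0.154% of all genes) and 1 higher (0.00671%), 0.161% in all. The symbols were listed with this comparison known, so nothing is read from that count. The call of Pclo ended (adjusted p from 0.0541 to 0.0786) without naive 2, naive 4, any 1 of the pre libraries, onset 1 or onset 4, and in the fit of only the 2 groups compared (0.413), while its log2 difference stayed between -1.32 and -1.18. For 5 members the peak library lay below all naive libraries, as it did for 22.6% of all genes, and for 0 members it lay above them (21.8% of all genes).

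Exon length moved with the peak difference. Over the 13911 tested genes with a length, sorted into deciles of merged exon length, the median peak difference went from 0.18 log2 in the shortest (up to 1.77 kb) to -0.29 log2 in the longest (10.1 kb and more), where 83.4% of genes were below 0. Of the members, 7 are in the longest decile, from 10.39 kb in Rims2 to 22.46 kb in Pclo and 22.75 kb in Unc13b, and Rims1 (7.36 kb), Rimbp2 (7.93 kb) and Erc2 (9.73 kb) are in the deciles next to it. The same decile had medians of -0.05 log2 for pre and -0.08 log2 for onset.

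**Figure D2:**
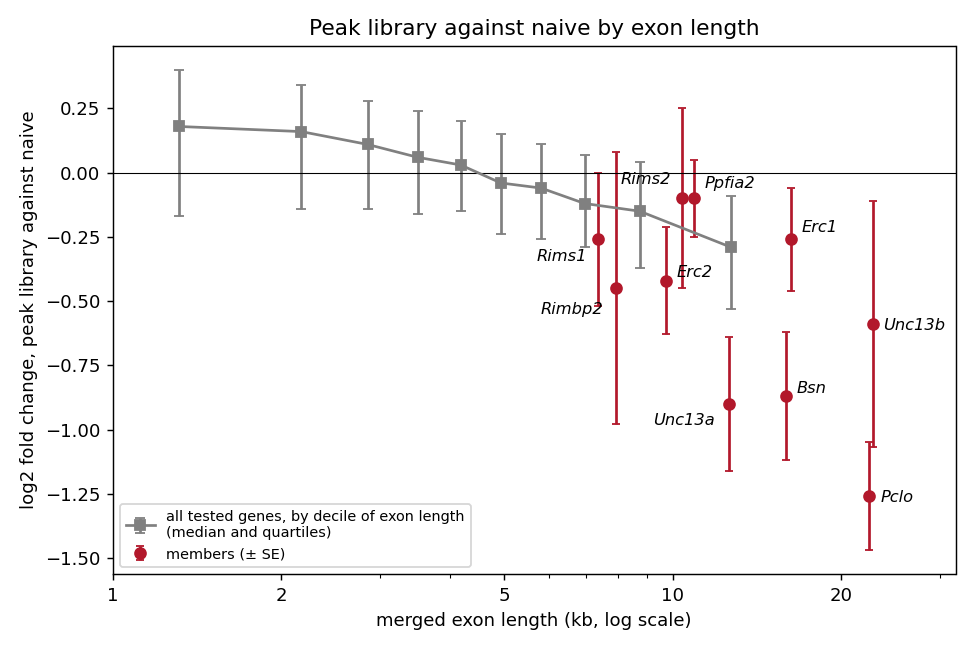
Log2 fold change of the peak library against naive (y axis) against merged exon length in kb (x axis, log scale). Grey squares are medians and quartiles of all tested genes by decile of length, placed at the median length, and red points are the members with their SE; Pclo, Unc13a, Bsn and Unc13b lie below the quartile range of the longest decile (-0.53 to -0.09), and Rims2, Ppfia2 and Erc1 above its median.

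With each library's trend over exon length removed, the members' median at the peak was -0.22 log2 and 0 members were called (1 gene in all). Pclo was then at -0.80 log2 (adjusted p = 0.404 in edgeR), Unc13a at -0.66 (0.648) and Bsn at -0.55 (0.734). Unc13b was at -0.13 log2. Rims2 (0.07), Erc1 (0.07) and Ppfia2 (0.09) had values above 0.

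Against onset the peak library was lower for 9 of 10 members, with a median of -0.38 log2 beside -0.01 over all genes. The longest decile of exon length, which holds most of the members, had a median of -0.20 log2 in this comparison. Pclo differed by -1.04 ± 0.20 log2 (SE; adjusted p = 0.171), Bsn by -0.68 ± 0.24 and Unc13a by -0.62 ± 0.26, and Rims2 by 0.09 ± 0.35. EdgeR called 0 genes (0.0%, 756 genes and 3 members at an unadjusted p below 0.05), DESeq2 113 and limma-voom 20, and each of those tools called 1 member. The peak library lay below all onset libraries for Bsn, Pclo, Erc1 and Unc13a, as it did for 18.2% of all genes, and for 0 members above them (19.5% of all genes). With each library's trend over exon length removed, the members' median against onset was -0.23 log2 and Pclo was at -0.68 log2. The comparisons with naive and with onset share the peak library.

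Libraries of 1 stage differed widely in some members and not in others. Rims2, Unc13b and Rimbp2 moved together. In naive 1, pre 1, pre 4 and onset 2, Unc13b was at 905, 780, 899.6 and 761 CPM, Rims2 at 358, 281, 341 and 273 CPM and Rimbp2 at 409.6, 351, 394 and 348 CPM. In onset 4 they were at 327, 177 and 176 CPM, in pre 3 at 486, 196 and 215 CPM and in onset 1 at 435, 184 and 204 CPM. High and low libraries of the trio occurred in pre and onset alike.

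Over the 13 libraries, log2 CPM of Rims2 and Unc13b had Pearson r = 0.901 (permutation p = 7e-05, adjusted p = 0.00146) and Spearman rho = 0.929 (permutation p = 3e-05, adjusted p = 0.00135). Rims2 and Rimbp2 had r = 0.898 (permutation p = 3e-05, adjusted p = 0.00135) and rho = 0.874 (permutation p = 0.00019, adjusted p = 0.00427), and Unc13b and Rimbp2 r = 0.886 (permutation p = 1e-04, adjusted p = 0.00146) and rho = 0.841 (permutation p = 0.00064, adjusted p = 0.0072). Without the 2 libraries farthest from the median these r were 0.852, 0.896 and 0.875, and with the stage means removed (12 libraries, without the peak) they were 0.928, 0.941 and 0.911. All 45 pairs of members were computed, each with 100000 two-sided resamples and adjustment over the 45. Of these, 12 had an adjusted p of r below 0.05, all 12 positive. The share of such pairs among all genes was not computed, so the count is not read as a trait of the members. Genes outside the set could follow a member more closely, such as Gabbr2 with Rimbp2 (r = 0.977, the nearest of 11243 genes).

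Bsn and Pclo formed another close pair (r = 0.880, permutation p = 0.00013, adjusted p = 0.00146; rho = 0.808, permutation p = 0.0014, adjusted p = 0.0105), with r = 0.682 without the 2 farthest libraries and 0.684 with stage means removed. The relation of Pclo to Unc13a (r = 0.728, permutation p = 0.00602, adjusted p = 0.0271; rho = 0.555, permutation p = 0.0523, adjusted p = 0.102) rested on such libraries, with r = 0.273 without them. Bsn was also related to Rims1 (r = 0.783, permutation p = 0.00088, adjusted p = 0.0066; rho = 0.758, permutation p = 0.00354, adjusted p = 0.0199; r = 0.815 without the 2 farthest). With stage means removed, which leaves out the peak library, r was 0.155 for Pclo and Unc13a. It was 0.573 for Bsn and Unc13a (0.824 over all 13 libraries) and 0.868 for Bsn and Rims1. The p-values of all pairs include the peak library, whose levels were known when the symbols were chosen, so they are given as a description. Erc2 and Ppfia2 were in none of the 12 pairs. Unc13a and Unc13b (r = 0.314, permutation p = 0.297, adjusted p = 0.392; rho = 0.220, permutation p = 0.47, adjusted p = 0.588; r = 0.369 without the 2 farthest) did not pass, and neither did Rims1 and Rims2, with r = 0.591 (permutation p = 0.0362, adjusted p = 0.0856; rho = 0.599, permutation p = 0.0341, adjusted p = 0.0808; r = 0.525 without the 2 farthest).

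**Figure D3:**
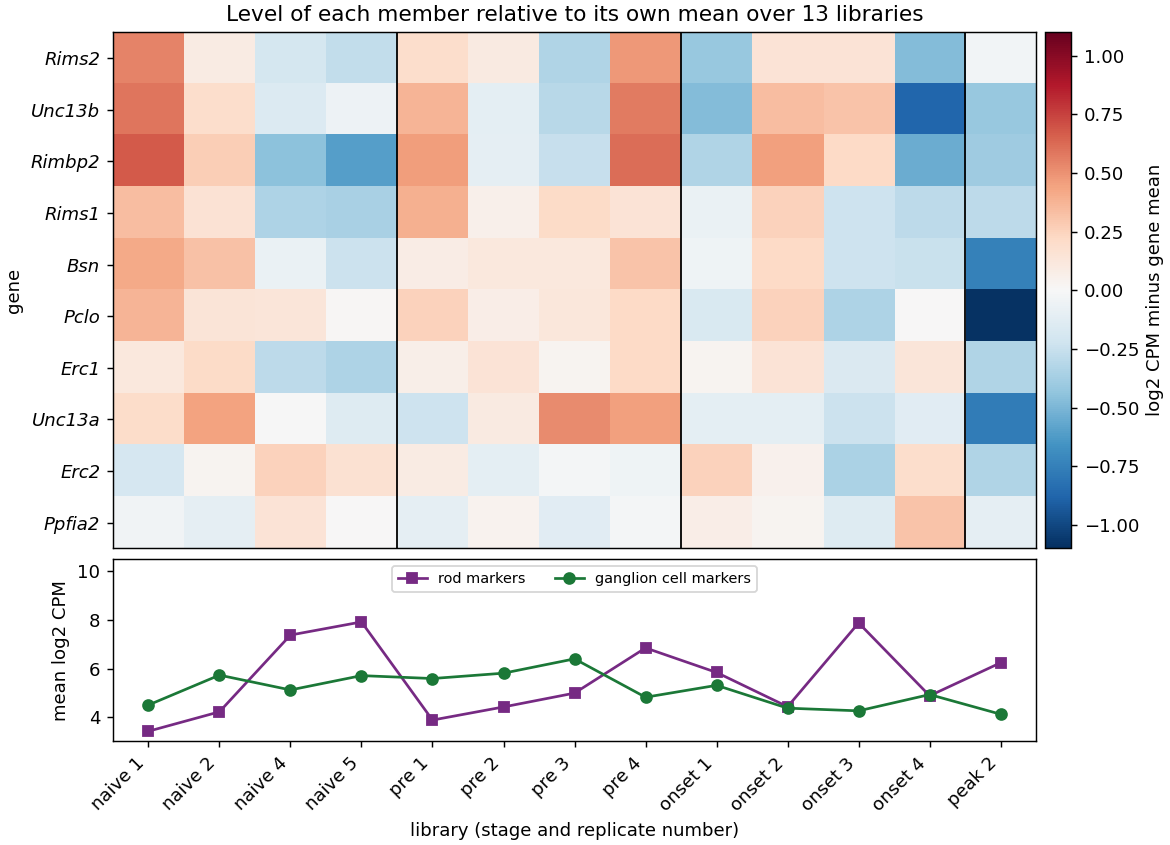
Upper panel: log2 CPM of each member minus its mean over the 13 libraries (colour), by library, with black lines between stages. Lower panel: mean log2 CPM of rod markers and of ganglion cell markers in the same libraries; Rims2, Unc13b and Rimbp2 are high together in naive 1, pre 1 and pre 4 and low in onset 1 and onset 4.

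The 300 bases around the annotated start, with 250 before and 50 after it, are shown for Unc13b and Rimbp2, which varied together, and for the paralog Unc13a, whose relation to them did not pass. Sequences are from RefSeq on GRCm38.p6, on the strand of the gene, and 9 of the 10 members had an entry.
Unc13b, chr4:43058703-43059002, plus strand: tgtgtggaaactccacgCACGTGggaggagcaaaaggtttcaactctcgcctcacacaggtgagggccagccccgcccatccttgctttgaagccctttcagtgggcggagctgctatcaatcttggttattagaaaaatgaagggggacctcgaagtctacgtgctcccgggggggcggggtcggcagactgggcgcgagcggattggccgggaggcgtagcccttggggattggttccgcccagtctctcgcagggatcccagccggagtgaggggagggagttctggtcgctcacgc
Rimbp2, chr5:128953437-128953736, minus strand: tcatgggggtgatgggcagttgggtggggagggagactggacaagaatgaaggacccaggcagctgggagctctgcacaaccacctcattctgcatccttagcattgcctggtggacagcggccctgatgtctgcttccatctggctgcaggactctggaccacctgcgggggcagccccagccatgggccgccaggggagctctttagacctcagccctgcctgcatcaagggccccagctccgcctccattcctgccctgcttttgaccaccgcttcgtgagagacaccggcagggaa
Unc13a, chr8:71671708-71672007, minus strand: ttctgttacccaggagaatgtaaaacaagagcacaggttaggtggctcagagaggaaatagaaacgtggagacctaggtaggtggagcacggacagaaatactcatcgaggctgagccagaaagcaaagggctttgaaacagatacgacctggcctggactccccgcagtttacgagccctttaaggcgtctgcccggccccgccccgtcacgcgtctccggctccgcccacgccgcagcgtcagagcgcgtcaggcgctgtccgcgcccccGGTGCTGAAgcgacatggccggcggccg
Capitals mark matches, on either strand, to any of 4 motifs searched: TAATCC (bound by CRX and OTX factors of photoreceptors and bipolar cells), TTCAGCACC (part of the site of the neuronal repressor REST), TGACGTCA (the cAMP response element) and CACGTG (an E-box). The E-box matched in Unc13b and in 7.15% of 32851 promoters, the REST-type motif in Unc13a and in 0.37%, and the CRX-type motif in Ppfia2 and in 7.06%. The cAMP response element was in 1.79% of promoters and in none of the 9 members' windows, and Rimbp2 held none of the 4. These matches describe letters in the windows and are not binding data.

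The rule names no measure of the libraries' cell content, although the symbols and these fits were chosen with earlier results of the data known, so the p-values below are not independent of that knowledge. The rod index, the mean log2 CPM of 15 rod markers, ran from 3.42 in naive 1 to 7.92 in naive 5. The ganglion cell index ran from 4.12 in the peak library to 6.40 in pre 3. It weighs markers with few counts like the others and is not the amount of ganglion cell transcripts. The peak library's summed markers (1457 CPM) lay inside the naive range (1316 to 1745 CPM). The amacrine cell index, without the vesicular transporter Slc32a1, ran from 8.58 in naive 5 to 9.08 in onset 4, less than 1 unit. Its lowest values, in naive 5, onset 3 (8.64) and naive 4 (8.72), fell in the libraries with the highest rod index (7.92, 7.88 and 7.38). No fit held both, so the rod and amacrine results cannot be told apart. Each index was fitted with stage in edgeR over all genes, so a coefficient is the log2 change per unit of the index within stages. Indices of 1 library are parts of 1 total.

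With a higher rod index, 9 of 10 members had a coefficient below 0 (8 or 9 with any 1 library left out). Rims1 fell with the rod index by 0.12 ± 0.03 log2 per unit (SE; adjusted p = 0.0274 in edgeR), from 124 CPM in naive 1 to 76.1 CPM in naive 5. It was the 1 member called, against 8.55% of all genes in either direction, 2.31% lower and 6.24% higher. Erc1 (-0.08 ± 0.03, adjusted p = 0.0736), Bsn (-0.08 ± 0.03, adjusted p = 0.135) and Pclo (-0.07 ± 0.03, adjusted p = 0.125) had unadjusted p-values below 0.05 and did not pass, and the other 6 coefficients lay between -0.11 and 0.01. The call of Rims1 ended without naive 1, 2, 4 or 5, pre 1 or onset 2 (adjusted p = 0.138, 0.0521, 0.0828, 0.137, 0.0531 and 0.0643). Without pre 4, 4 members were called (Rims1, Erc1, Bsn and Pclo), against 8.4% of all genes. Without pre 1, Erc1 was called in place of Rims1, against 7.94% of all genes.

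Of the 73 on a list of vesicle, fusion and channel genes, all tested, 5 rose and 12 fell with the rod index (median -0.04 log2 per unit, beside 0.00 over all genes). The 5 that rose were Cplx4 (0.97 ± 0.04 log2 per unit, adjusted p = 2.51e-09), a complexin of ribbon synapses, the vesicular glutamate transporter Slc17a7 (0.91 ± 0.05, adjusted p = 5.6e-07), the photoreceptor calcium channel Cacna1f (0.95 ± 0.10, adjusted p = 0.00031), its partner Cacna2d4 (0.48 ± 0.06, adjusted p = 0.000437) and Stx3 (0.18 ± 0.03, adjusted p = 0.00127), the syntaxin of ribbon synapses. Among the 12 that fell were Snap25 (-0.12 ± 0.02, adjusted p = 0.000667), the conventional SNARE protein, the vesicle proteins Synpr (-0.11 ± 0.02, adjusted p = 0.00351) and Sv2a (-0.09 ± 0.02, adjusted p = 0.011), and Dnm3 (-0.08 ± 0.02, adjusted p = 0.00629), a dynamin of vesicle retrieval. Ctbp2, whose gene also encodes a non-ribbon protein, was at 0.02 ± 0.02 (adjusted p = 0.656) and Syp, a general vesicle protein, at -0.04 ± 0.02 (adjusted p = 0.267).

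**Figure D4:**
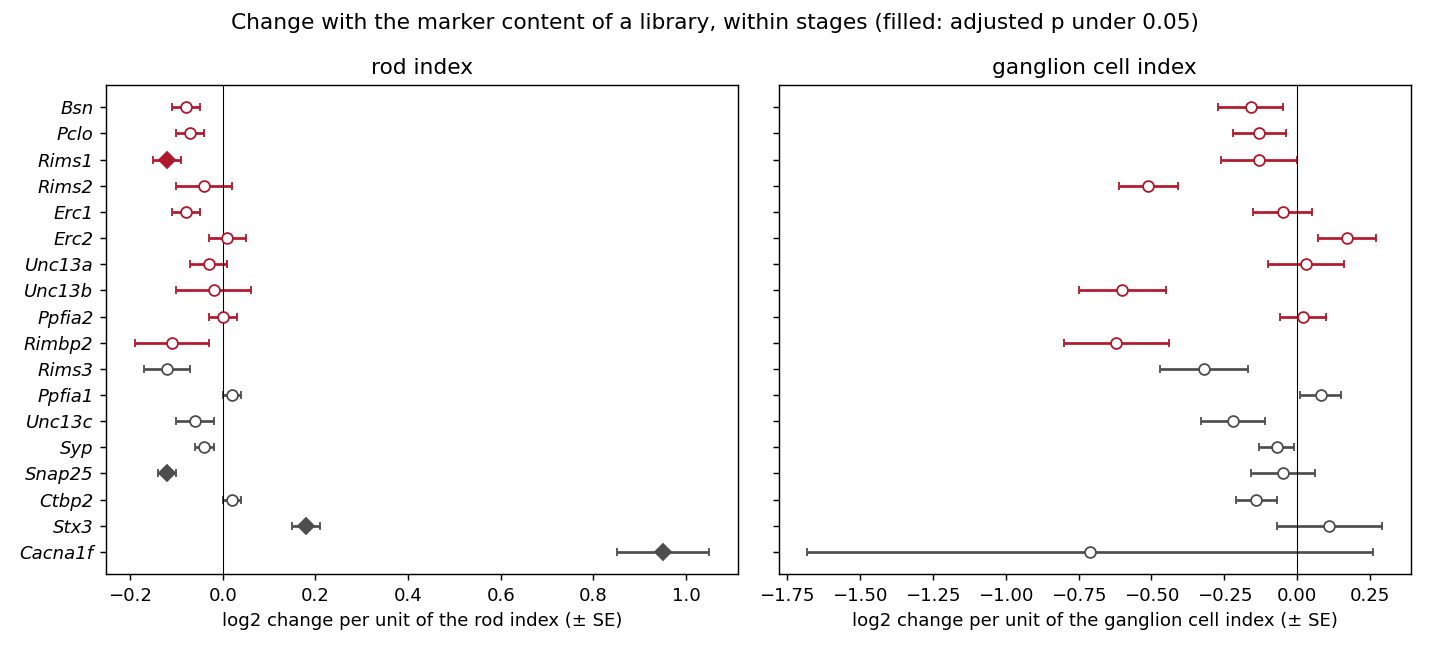
Log2 change per unit of the rod index (left) and of the ganglion cell index (right), with SE, for the members (red) and for 8 genes of the release machinery list (grey), from edgeR fits with stage. Filled diamonds have an adjusted p below 0.05; Rims1 is filled on the left, and Rims2, Unc13b and Rimbp2 lie farthest below 0 among the members on the right without passing.

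With a higher ganglion cell index, the trio had the lowest coefficients of the members. Rims2 was at -0.51 ± 0.10 log2 per unit of the ganglion cell index (SE; unadjusted p = 0.000172, adjusted p = 0.064), Unc13b at -0.60 ± 0.15 (0.00238 and 0.167) and Rimbp2 at -0.62 ± 0.18 (0.00643 and 0.222) in edgeR. Of the members 0 passed, against 0.188% of all genes (0.161% higher and 0.0269% lower). The other 7 ran from -0.16 for Bsn to 0.17 for Erc2. In DESeq2 Rims2 (adjusted p = 0.00061), Unc13b (0.0126) and Rimbp2 (0.0404) passed, against 1.6% of all genes. In edgeR Rims2 also passed with the rod index in the same fit (adjusted p = 0.00787) and with the length trend removed (0.0457). Those fits called 1.6% and 0.195% of all genes. Rims2 passed as well without the low-count filter (0.0329), without naive 2 (0.0224) and without naive 4 (0.0346). The shares of all genes called there were 0.183%, 0.269% and 0.257%. No member passed in limma-voom, with DESeq2 size factors, without the peak library, without any other single library or without a stage term. Without that term 6 of 10 members were above 0 (median 0.06 log2 per unit), against 3 with it (median -0.13).

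With a higher amacrine cell index, all 10 members had coefficients above 0, with a median of 0.63 log2 per unit beside 0.00 over all genes. Without onset 3 the median was 1.11 with 8 members above 0, and with other single libraries left out 8 to 10 members were above 0. Erc1 rose by 0.91 ± 0.19 log2 per unit (SE; adjusted p = 0.0173 in edgeR) and was the 1 member called, against 5.4% of all genes, 1.32% higher and 4.08% lower. Bsn (0.91 ± 0.27, adjusted p = 0.0732), Rims1 (1.01 ± 0.32, adjusted p = 0.0888) and Pclo (0.68 ± 0.24, adjusted p = 0.128) did not pass. Without onset 4, 3 members were called (Erc1, Bsn and Rims1), against 5.01% of all genes. Of the release machinery list 7 rose and 5 fell with this index, among them Sv2a (0.88 ± 0.17, adjusted p = 0.0116), Slc32a1 (0.84 ± 0.18, adjusted p = 0.0183), the dynamin Dnm3 (0.77 ± 0.17, adjusted p = 0.0185) and Snap25 (0.97 ± 0.21, adjusted p = 0.0185) upward. Cacna2d4 (-4.36 ± 0.72, adjusted p = 0.0105), Stx3 (-1.51 ± 0.32, adjusted p = 0.0159), Slc17a7 (-7.53 ± 1.38, adjusted p = 0.0165) and Cacna1f (-8.17 ± 1.57, adjusted p = 0.0192) were among the 5 that fell. The call of Erc1 ended without naive 1, naive 2 or naive 5 (adjusted p = 0.0508, 0.0638 and 0.103).

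By stage, the release machinery list held no called gene in any comparison. Its median difference from naive was 0.03 log2 for pre, -0.04 for onset and -0.09 for the peak, with 41, 28 and 29 of 73 genes above 0. Rims3, a short RIM, was at 246 ± 88.7 CPM in naive, 261 ± 9.27 in pre and 263 ± 59.9 at onset (SD, n = 4 each), and 211 CPM at the peak. Unc13c was at 244 ± 55.7, 290.4 ± 22.7 and 259 ± 40.4 CPM, and 185 CPM at the peak. The liprin Ppfia1 was at 99.8 ± 6.56, 96.5 ± 10.3 and 96.2 ± 6.02 CPM, and 77.5 CPM at the peak.

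The genes whose pattern over the 13 libraries was most like that of the members were searched among 11243 genes with a mean of at least 5 CPM. The mean pattern of the 10 members was nearest to Kcnh5, a potassium channel gene (r = 0.979), followed by Arhgef12 (0.964), Dlg5 (0.955), the calcium channel gene Cacna1e (0.940), Cnksr2 (0.931) and Cgn (0.929). Bsn was nearest to Epb41l1 (0.963) and Tnrc18 (0.955), and Pclo to Unc80 (0.978), a subunit of a sodium leak channel, and Tulp4 (0.965). Rimbp2 was nearest to the GABA-B receptor subunit Gabbr2 (0.977) and Adarb2 (0.975), Unc13b to Rasgrf2 (0.960) and Elapor2 (0.943), and Rims2 to Mpp6 (0.954) and Gucy1a1 (0.944). Erc1 was nearest to Mgat3 (0.930) and Ece1 (0.927), Unc13a to Mprip (0.937) and Cbl (0.936), and Erc2 to Cul9 (0.918) and Tnik (0.892). Ppfia2 had the weakest neighbours, H2aj (0.833) and Klf12 (0.809). These are Pearson r of log2 CPM over libraries that share stage, cell content and length trends, and are given as a description.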

How the data were processed

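RNA sequencing counts were read for 13 of the 14 labelled libraries from 1 table. The values are raw read counts per gene symbol deposited by the authors. Per the submitters' processing notes, cutadapt, HISAT2, HTSeq and DESeq2 were used, while the genome build and the strand option are not given in the sources used here. The 5 HTSeq summary lines were left out. Reads in no feature were 22.8% in the peak library and 25% to 27.6% in the other libraries. Counts were filtered (filterByExpr by stage, minimum count 10), scaled by TMM and tested in 1 robust quasi-likelihood fit over all libraries with edgeR 4.0.16 in R 4.3.3. DESeq2 1.42.0, limma 3.58.1 (voom with quality weights), other scaling, filters, covariates and samples were alternatives. CPM in the log2 scale had a prior count of 2. Exon lengths came from GENCODE M21, found for 93.4% of tested genes, and length trends were removed by lowess (span 0.3). The members, lists and tests were chosen with earlier results of these data known. Named genes are the members, the release list members past the threshold (up to 4 each way) with 8 fixed relatives, and the nearest patterns; coefficients on an index are given singly at an unadjusted p below 0.05. All 5 risers with rods are named. The nearest patterns to Rims1 are not reported here. On simulated data, edgeR found 49.0% of 2-fold changes for pre, 51.1% for onset and 6.45% for the peak (14550, 14557 and 14547 genes tested). Of simulated 1.5-fold changes it found 17.7% for pre, 20.4% for onset and 0% for the peak. Deviations of same-numbered libraries correlated over 0.1 in all 3 naive and pre pairs (0.188 to 0.289), and not in all pairs of the other groups. Some differently numbered naive and pre libraries correlated as much (0.314 for naive 5 and pre 4, 0.295 for naive 1 and pre 2). Others went down to -0.335 (naive 5 and pre 2). The check therefore does not show that the numbers pair the samples. Counting floors cover counting error only.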

Additional observations from a re-analysis of the deposited data

Results flagged for a closer look

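Among the 4 pre libraries, Bsn in pre 4 stood apart at 929 CPM, while the other 3 lay at 789 to 809 CPM. Of 30 groups of 4 libraries examined this was the 1 in which a library was that far from the rest, where chance alone flags about 1 in 20. Naive 1 and naive 2 were higher still, at 993 and 935 CPM. Pclo in pre 4, at 1054 CPM, was below pre 1 at 1074 CPM.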

How the results depend on the processing

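Members called in the main fits kept their sign in every setting. At the peak against naive, removing the length trend turned Erc1 from -0.26 to 0.07 log2 and Ppfia2 from -0.10 to 0.09, beyond the spread between replicates. Rims2 went from -0.10 to 0.07 log2, within that spread. DESeq2 called 6 genes in pre against naive, 16 at onset, 293 at the peak, 20 in onset against pre, 113 in peak against onset and 238 on the ganglion cell index; of the members it called 3 at the peak against naive, 1 against onset, 3 on the ganglion cell index and 2 on the amacrine index. Limma-voom called 98 genes at the peak against naive and 20 against onset, with 1 member in each, and 2 members on the amacrine index. The rod index as a covariate gave 100 genes in pre, 12 at onset, 113 at the peak against naive and 11 (1 member) against onset. Fitting only the 2 groups compared gave 0 genes and 0 members at the peak against naive. Removing the length trend gave 1 gene and 0 members there, a member median of -0.22 log2, and 1 member on the ganglion cell index. Without the low-count filter 1 gene was called in peak against onset, 47 genes and 1 member on the ganglion cell index and 2 members on the amacrine index, and DESeq2 size factors gave 6 genes in peak against onset. The ganglion cell index without a stage term gave 111 genes, and with the rod index in the same fit 239 genes and 1 member. On the amacrine index, DESeq2 called 6.82% of all genes, limma-voom 6.2% and the fit without the low-count filter 3.28%.

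Same-numbered libraries of onset did not deviate together with those of naive or pre (correlations from -0.393 to 0.250). Those of naive and pre correlated no more than some differently numbered libraries, so the numbers were not shown to pair samples. With the replicate block, 0 genes and 0 members were called at the peak against naive, 92 genes and 0 members on the rod index, 138 genes and 2 members on the ganglion cell index, and 0 genes and 0 members on the amacrine index (median 0.39, 8 members above 0). Adjusted p under the block was 0.189 for Pclo at the peak against naive, 0.882 for Rims1 on the rod index (-0.07 log2 per unit), 0.807 for Erc1 on the amacrine index, and 0.0165 for Rims2 and 0.035 for Unc13b on the ganglion cell index. The block changed no other member's call.

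With 1 replicate left out in turn, genes called ran from 0 to 1 at onset against naive (1 without onset 2), 6 to 25 at the peak against naive, 0 to 9 against onset (9 without onset 3), 682 to 1259 on the rod index, 4 to 40 on the ganglion cell index and 296 to 932 on the amacrine index. Members called ran from 0 to 1 at the peak against naive, 0 to 4 on the rod index, 0 to 1 on the ganglion cell index and 0 to 3 on the amacrine index. The causes were not tested, and these fits held fewer samples. The peak stage rests on 1 library.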
